A study of Mus musculus with 24 samples.

Results

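The response of P199L-ERG progenitors to the HDAC3 inhibitor BRD3308 was read from 8 of the 24 RNA sequencing libraries of the series. They are the 4 BRD3308 and the 4 DMSO libraries that the labels assign to P199L-ERG cells. Of 53801 genes in the count table, 12963 had enough reads to be tested. The cells are ER-Hoxb8 progenitors, mouse (C57BL/6) granulocyte-monocyte progenitors held immature by an estrogen-dependent Hoxb8, and beta-estradiol was washed out of every group before treatment. P199L-ERG cells carry human ERG with the P199L substitution of a proline by leucine, HA-tagged and driven by the hPGK promoter of a lentiviral vector, in a stable line sorted for GFP. Cells received 5 µM BRD3308 or DMSO, the solvent, for 36 h. The paper states a lower dose and a longer time elsewhere in its text. The deposited description calls the 4 replicates independent experiments, but separate transductions are not stated, so the replicates of a construct may come from 1 derived line and the p-values then measure only the spread between these cultures. Cells with WT-ERG and cells with the empty vector (BB), treated in the same ways, served to show where P199L-ERG cells differed. Their libraries also entered the low-count filter, the scaling and the estimate of the spread. With only the P199L-ERG groups in the fit 2525 genes rose and 2746 fell, against 3167 and 3120 with all 24 libraries.

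HDAC3 is a class I histone deacetylase that acts within nuclear co-repressor complexes, where it removes acetyl groups from histones and holds target genes down. ERG is an ETS transcription factor of blood stem cells, and the study asked whether this proline links ERG to the complex. In myeloid development the progenitors first make primary granule proteins such as myeloperoxidase, and then the receptors, adhesion molecules and later granule proteins of neutrophils and monocytes.

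The libraries of P199L-ERG cells held 14455890 to 15864492 counts. Levels are given as CPM, counts scaled to library size with TMM factors. A first principal component with 64.6% of the variance placed the BRD3308 libraries at 26.9 to 31.3 and the DMSO libraries at -30.5 to -27.8. On the second component (11.1%) DMSO replicate 4 stood apart at 25.9, against -17.8 to 5.54 for the other 7 libraries. Its deviations correlated with exon length at -0.439 (a description across 9763 genes), against -0.162 to 0.424 in the other 7, so results that rest on it are given without it. As a check of the labelled cell type, the myeloperoxidase gene Mpo stood at 15238 ± 750 CPM with BRD3308 and 17741 ± 945 CPM with DMSO (SD, n = 4 each). The Hoxb8 gene that immortalises the line stood at 850 ± 11.3 and 720 ± 38.7 CPM. The Hoxb8 reads may include those of the introduced gene. In bulk RNA, more cells of a type and more RNA per cell cannot be told apart.

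With BRD3308, 3167 genes rose (24.4% of those tested) and 3120 fell (24.1%) relative to DMSO, at a threshold of 0.05 on the adjusted p of edgeR's quasi-likelihood test. The median size of a rise was 0.52 on the log2 scale and that of a fall -0.26. A change beyond 1 on that scale was reached by 856 rises (6.6%) and 30 falls (0.231%). Beyond 2 there were 210 rises and 0 falls. The libraries of the groups did not overlap for 2692 genes that were higher (20.8%) and 2444 that were lower (18.9%). The median fold change over all genes was -0.01 on the log2 scale, a value that the TMM scaling keeps near 0.

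**Figure D1:**
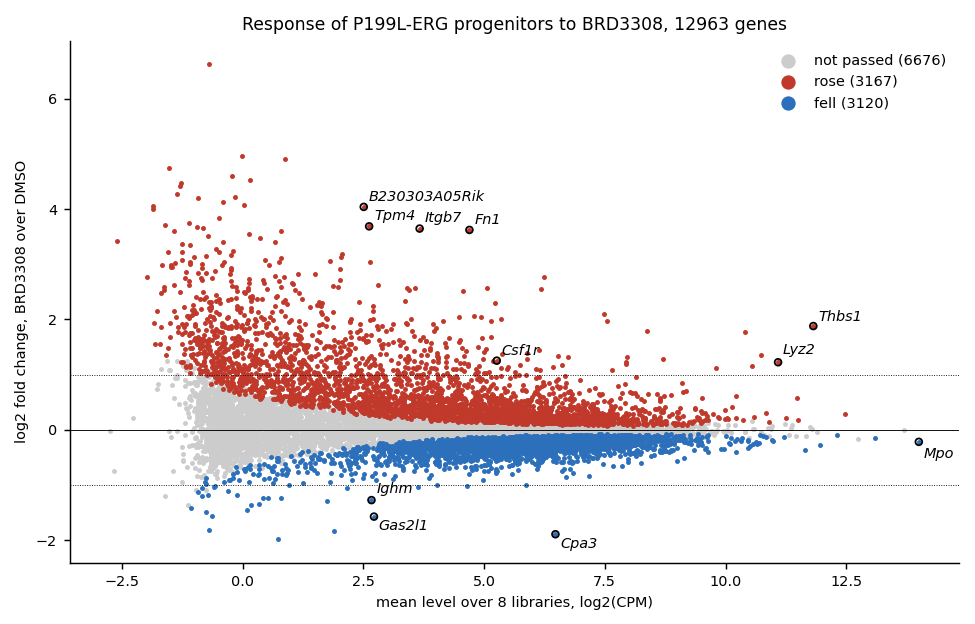
Log2 fold change of BRD3308 over DMSO in P199L-ERG progenitors against the mean log2(CPM) over the 8 libraries, with 1 point for each of 12963 genes, coloured by call; dotted lines mark 1 and -1. Most points above 1 lie at the low end of expression, and Thbs1 and Lyz2 are exceptions among abundant genes.

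Rises concentrated among genes with few reads and falls among genes with many. When the genes were cut into 4 equal classes by level, 974 of 3241 genes rose and 111 fell in the lowest class, and in the highest 590 of 3241 rose and 1252 fell. Of the 856 genes that rose beyond 1, 629 were in the lowest class and 18 in the highest. Long intergenic RNAs moved mostly upwards, with 116 of 336 rising and 14 falling, whereas protein-coding genes were even at 2844 and 3012 of 10984. The gene types were not matched for level, and in the lowest class by level rises outnumbered falls as well. Of 585 processed pseudogenes, whose reads can be shared with a parent gene, 16 rose and 36 fell.

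Among genes that reached 2 in mean log2 CPM and whose groups did not overlap, those with the 8 highest fold changes had varied roles. Itgb7, the beta chain of the integrins that bind the mucosal addressin and E-cadherin, had 48.3, 43.1, 42.3 and 43.9 CPM with BRD3308, against 4.31, 3.58, 3.41 and 2.78 CPM with DMSO. The groups of Itgb7 lay far apart, and the log2 fold change was 3.65 (SE 0.10, edgeR adjusted p = 1.13e-21). Fn1, which encodes the matrix protein fibronectin, had 99.9, 82.5, 89.2 and 94.3 CPM with BRD3308 and 8.75, 8.09, 7.66 and 4.99 CPM with DMSO (3.62, SE 0.11). Tpm4, an actin-binding tropomyosin, had 21.5, 22, 22.1 and 19.1 CPM with BRD3308 and 1.67, 1.51, 1.6 and 1.78 CPM with DMSO (3.69, SE 0.10). B230303A05Rik had the largest log2 fold change by this rule, 4.04 (SE 0.17), at 22.4 ± 2.53 CPM with BRD3308 and 1.38 ± 0.579 CPM with DMSO. This gene is annotated as a processed pseudogene, so its reads may belong to the gene it copies. S100a4, a calcium-binding protein of motile cells (3.19, SE 0.17), Ltbp3, a binding protein of latent TGF-beta (3.14, SE 0.15), the oxidant-gated calcium channel Trpm2 (3.05, SE 0.12) and H2-Ob, a chain of the class II modulator H2-O (2.92, SE 0.17), completed the 8 largest rises. Lack of overlap between groups was a condition for choosing these 8.

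Falls were smaller. Cpa3, a carboxypeptidase of mast cell granules that early myeloid progenitors also express, had 49.4, 45.6, 47.1 and 42.7 CPM with BRD3308, against 175, 164, 158 and 190 CPM with DMSO. For Cpa3 that was the largest fall among genes at this level, with a log2 fold change of -1.89 (SE 0.06, edgeR adjusted p = 8.92e-20). Itga2b, the CD41 integrin chain of megakaryocytes and early progenitors, had 19.3, 18.1, 16.3 and 16.3 CPM with BRD3308 and 38.7, 34.7, 35.2 and 33.4 CPM with DMSO (-1.02, SE 0.08). Tle1, a Groucho co-repressor, had 8.19, 9.31, 8.1 and 8.85 CPM with BRD3308 and 18.5, 17, 18.3 and 16.8 CPM with DMSO (-1.04, SE 0.08). The other members of the 8 were the cytoskeletal linker Gas2l1 (-1.57, SE 0.10), the immunoglobulin heavy chain gene Ighm (-1.28, SE 0.11), Dmwd (-1.05, SE 0.13), the ciliary protein gene Tmem216 (-1.01, SE 0.08) and the kinase Pak1, at 11.4 ± 1.24 CPM with BRD3308 and 22.8 ± 1.47 CPM with DMSO. These 8 were chosen under the same condition of no overlap.

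**Figure D2:**
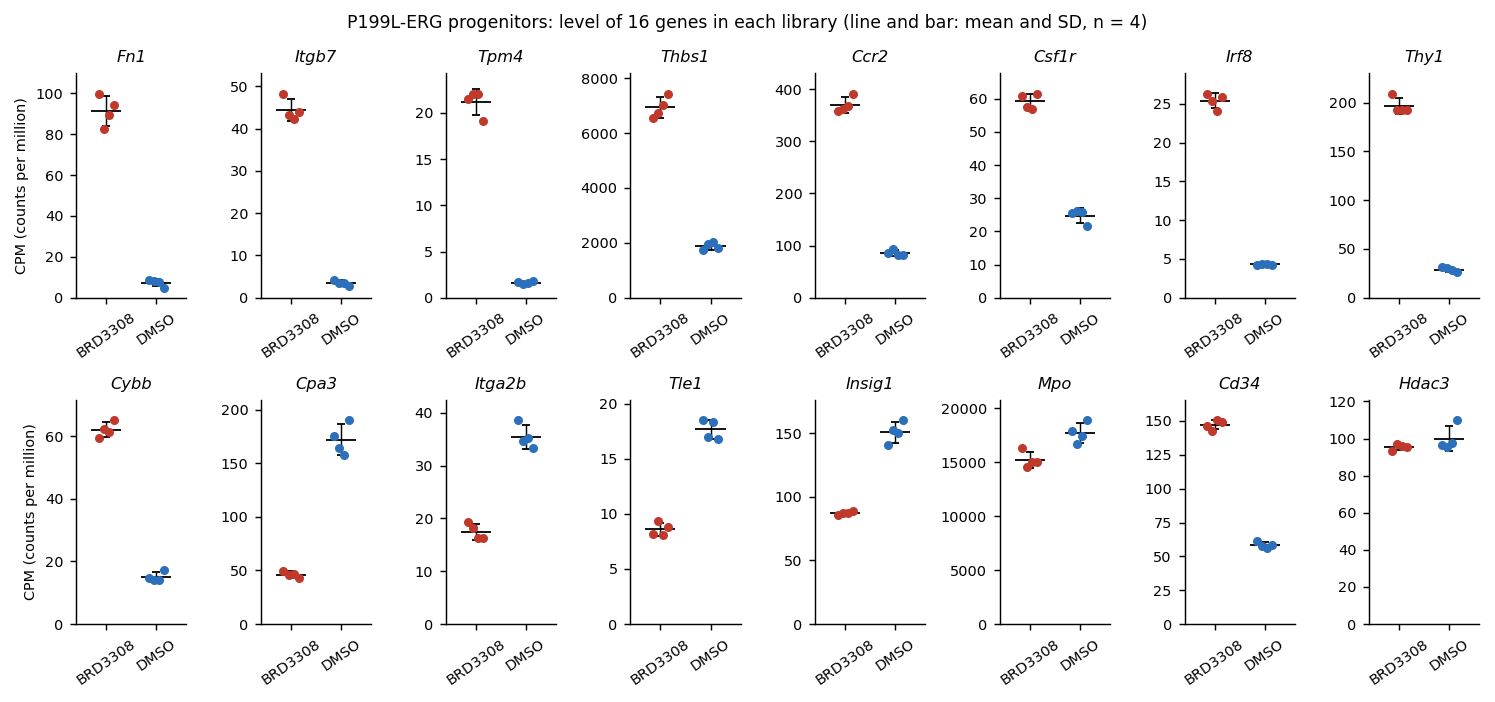
CPM of 16 genes in each of the 4 BRD3308 libraries (red, left) and 4 DMSO libraries (blue, right) of P199L-ERG progenitors, with a line for the mean and a bar for the SD and every axis starting at 0. Fn1, Itgb7 and Irf8 are lower with DMSO, Cpa3 and Itga2b are lower with BRD3308, and Hdac3 overlaps between groups.

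Genes that rose strongly and genes that fell differed in the base composition at their start sites. In vertebrates, promoters with many CpG dinucleotides are typical of broadly expressed genes and CpG-poor promoters of genes restricted to cell types. RefSeq windows (GRCm38.p6, 250 bases before to 50 after the start) could be matched to 9303 of the tested genes (71.8%). The ratio of observed to expected CpG had a median of 0.459 in the 634 windows of genes that rose beyond 1, 0.813 in the 2487 of genes that fell and 0.792 in the 4388 of genes that did not pass. Below a ratio of 0.35 lay 41% of the genes that rose beyond 1, 5.51% of those that fell and 12.8% of all windows. Among all genes that rose, with no limit on size as for the falls, the share was 22.8%. The difference between genes that rose beyond 1 and genes that did not pass was present within each of the 4 classes of expression. In the lowest class 40% of genes that rose beyond 1 and 27.8% of genes that did not pass lay below 0.35, and in the second class the shares were 37.6% and 10%. In the upper classes the genes that rose beyond 1 were few, 25 and 13, with 60% and 76.9% below 0.35.

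Windows of 5 genes are printed to show this contrast, written 5′ to 3′ on the strand of the gene in lower case with each CG dinucleotide in capitals. Itgb7 (chr15:102231886-102232185, minus strand) and Ccr2 (chr9:124101933-124102232, plus strand) rose and have 5 and 1 CG. Irf8 (chr8:120736108-120736407, plus strand) rose with 38 CG, and Insig1 (chr5:28071162-28071461, plus strand) fell with 38 CG. Cpa3 (chr3:20242132-20242431, minus strand) fell most with 3 CG, so single genes depart from the pattern both ways.
Itgb7: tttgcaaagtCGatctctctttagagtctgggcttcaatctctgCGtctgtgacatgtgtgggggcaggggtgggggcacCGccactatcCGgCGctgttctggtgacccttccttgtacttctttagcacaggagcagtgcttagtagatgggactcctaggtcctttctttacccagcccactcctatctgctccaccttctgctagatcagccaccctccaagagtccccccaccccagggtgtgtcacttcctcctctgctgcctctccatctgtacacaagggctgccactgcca
Ccr2: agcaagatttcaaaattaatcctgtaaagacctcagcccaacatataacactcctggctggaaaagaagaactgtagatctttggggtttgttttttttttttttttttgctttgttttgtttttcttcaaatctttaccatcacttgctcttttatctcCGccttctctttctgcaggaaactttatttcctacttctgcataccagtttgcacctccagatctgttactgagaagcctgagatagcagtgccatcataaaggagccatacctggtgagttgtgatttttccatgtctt
Cpa3: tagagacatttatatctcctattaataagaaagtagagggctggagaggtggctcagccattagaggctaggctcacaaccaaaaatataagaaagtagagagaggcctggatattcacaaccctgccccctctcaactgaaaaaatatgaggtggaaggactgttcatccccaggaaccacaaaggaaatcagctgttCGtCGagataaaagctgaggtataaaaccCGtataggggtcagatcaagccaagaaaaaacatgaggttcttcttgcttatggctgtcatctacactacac
Irf8: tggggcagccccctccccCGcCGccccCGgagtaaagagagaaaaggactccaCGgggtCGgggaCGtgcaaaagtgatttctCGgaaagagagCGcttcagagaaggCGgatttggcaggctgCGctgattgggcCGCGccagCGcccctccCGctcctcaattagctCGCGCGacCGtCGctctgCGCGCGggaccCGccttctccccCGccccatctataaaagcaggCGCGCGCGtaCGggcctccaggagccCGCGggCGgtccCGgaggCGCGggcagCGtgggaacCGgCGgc
Insig1: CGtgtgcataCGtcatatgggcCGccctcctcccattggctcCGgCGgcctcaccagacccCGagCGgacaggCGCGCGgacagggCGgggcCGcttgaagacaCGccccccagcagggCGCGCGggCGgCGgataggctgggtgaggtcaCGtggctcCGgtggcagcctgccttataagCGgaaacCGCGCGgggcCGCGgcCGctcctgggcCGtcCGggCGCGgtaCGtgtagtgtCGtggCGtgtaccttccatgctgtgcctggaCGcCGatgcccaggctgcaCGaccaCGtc

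Of 7 short motifs counted on both strands of the same windows, the letters AGGAAG, a core that ETS factors bind, were in 44.2% of the windows of genes that rose beyond 1, 31.7% of those of genes that fell and 33.9% of all. The CpG-containing ETS core CCGGAA was in 12.1%, 36.3% and 30.4%. TGANTCA, the AP-1 site, was in 12%, 3.66% and 4.89%. CACGTG, the E-box that MYC binds, was in 6.94%, 12.6% and 10.4%. The C/EBP letters TTGCNNAA were in 11.7%, 7.56% and 8.27%, the IRF element (the interferon-stimulated response motif) in 5.21%, 2.77% and 3.07%, and TCACNCCAC, the sterol response element, in 1.26%, 0.764% and 1.11%. These motifs differ in CpG content as the windows do, and a match describes letters and no binding. The falls had no limit on size. Among all genes that rose, AGGAAG was in 38.3% of the windows, CCGGAA in 21% and TGANTCA in 7.33%. These motif shares were not matched for level.

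**Figure D3:**
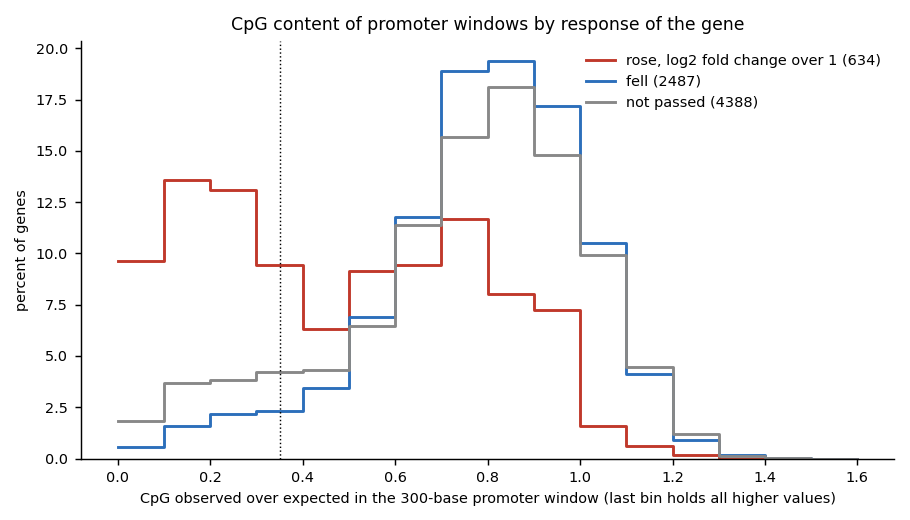
Percent of genes by the ratio of observed to expected CpG in the 300-base promoter window, for genes that rose beyond 1 on the log2 scale (634), genes that fell (2487) and genes that did not pass (4388). The first group peaks at 0.1 to 0.2 (13.6%), below 0.35 (dotted line), where 41% of it lies, with a lower peak at 0.7 to 0.8 (11.7%).

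Monocyte and macrophage genes rose as a group. Of 18 tested, 17 rose and 0 fell, with a median log2 fold change of 1.22. Ccr2, the chemokine receptor that brings monocytes out of the marrow, had 358, 362, 368 and 391 CPM with BRD3308 and 85.8, 93.1, 82.4 and 82.2 CPM with DMSO (2.11, SE 0.05, edgeR adjusted p = 2.4e-23). The pore-forming protein gene Mpeg1 had 364, 356, 375 and 395 CPM with BRD3308 and 98.1, 96.8, 96.3 and 88.7 CPM with DMSO (1.97, SE 0.05). Csf1r, the receptor for macrophage colony-stimulating factor, had 60.7, 57.5, 56.9 and 61.5 CPM with BRD3308 and 25.5, 26.2, 25.9 and 21.5 CPM with DMSO (1.25, SE 0.07). These genes were already read in DMSO cells and lay 2.38-fold (Csf1r) to 4.3-fold (Ccr2) higher with the drug. F13a1, the coagulation factor XIII subunit of monocytes, rose by 1.28 (SE 0.04). The endotoxin co-receptor Cd14 was the exception at 56.8 ± 3.77 CPM with BRD3308 and 63.8 ± 5.54 CPM with DMSO (-0.17, SE 0.07, adjusted p = 0.0673). It passed as a fall without DMSO replicate 1 (-0.20, adjusted p = 0.0366), without DMSO replicate 2 (-0.20, 0.0398), without BRD3308 replicate 3 (-0.20, 0.0438) and when replicate numbers were blocked (-0.17, 0.00294). Of the list's 8 untested members, C1qa, C1qb, C1qc, Mertk and Cd36, which tissue macrophages express, had 0 counts in all 8 libraries, while Mrc1 had 7 counts with BRD3308 and 12 with DMSO, Klf4 had 21 and 10, and Ms4a7 had 2 and 0.

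Transcription factors of the myeloid lineages did not move as one. Irf8, which directs progenitors towards monocytes, had 26.3, 25.4, 24 and 25.9 CPM with BRD3308 and 4.18, 4.39, 4.38 and 4.21 CPM with DMSO (2.56, SE 0.08, edgeR adjusted p = 8.92e-20). Cebpe, the factor of late granulocyte maturation, had 219, 212, 204 and 202 CPM with BRD3308 and 292, 292, 299 and 324 CPM with DMSO (-0.53, SE 0.04). Irf8 was thus 5.91-fold higher and Cebpe 0.694-fold of its DMSO level in the same libraries. Zeb2 rose by 0.78 (SE 0.04) and Cebpd changed by -0.39 (SE 0.04). Gfi1, a repressor that favours granulocytes (-0.04, SE 0.05, adjusted p = 0.481), did not pass, nor did Spi1, which encodes the ETS factor PU.1 (-0.09, SE 0.05, adjusted p = 0.0859). For Spi1 that call turned into a fall without DMSO replicate 1 (-0.12, adjusted p = 0.047) and under the replicate block (-0.09, 0.0113). Of 15 factors on the list, which leaves out the ETS factors, 6 rose and 2 fell, with a median of 0.09. Beside this, 24.4% of all genes tested rose and 24.1% fell.

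Neutrophil genes were described in groups by the stage they mark, with no test between the groups. Of 25 genes of mature neutrophils 16 rose and 1 fell (median 0.59). S100a9, a calprotectin subunit, had 2293, 2602, 2477 and 2650 CPM with BRD3308 and 589, 708, 775 and 859 CPM with DMSO (1.77, SE 0.11, edgeR adjusted p = 3.97e-13). Its partner S100a8 rose by 1.15 (SE 0.10) and the interleukin 8 receptor Cxcr2 by 1.29 (SE 0.06), whereas the peptidoglycan-binding Pglyrp1 fell (-0.37, SE 0.08). Of 17 secondary and tertiary granule proteins 8 rose and 2 fell (median 0.24), among them the neutrophil antigen Cd177 (1.08, SE 0.06), the metalloprotease Adam8 (1.68, SE 0.09) and lysozyme, Lyz2 (1.22, SE 0.07). The granule proteins lactoferrin and cathelicidin did not pass. Ltf had 21.5, 20.8, 22.7 and 23.5 CPM with BRD3308 and 18.3, 14.9, 17.3 and 24.6 CPM with DMSO (0.24, SE 0.13, adjusted p = 0.124). Camp had 16.4, 21.7, 21.3 and 22.8 CPM with BRD3308 and 15.6, 14, 18.9 and 25.7 CPM with DMSO (0.16, SE 0.15, adjusted p = 0.401). DMSO replicate 4 was the highest library for both, and without it Ltf (0.39, adjusted p = 0.0108) and Camp (0.34, adjusted p = 0.0406) passed. Under the replicate block Ltf also passed (0.25, adjusted p = 0.0429).

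Among primary granule proteins, made earliest, falls outnumbered rises. Of 13 tested 3 rose and 8 fell (median -0.25). Mpo had 16321, 14590, 15053 and 14988 CPM with BRD3308 and 17898, 16657, 17479 and 18930 CPM with DMSO (-0.22, SE 0.04, edgeR adjusted p = 0.000137). The serine protease gene Prss57 changed by -0.47 (SE 0.04). Elane, neutrophil elastase, was the largest exception at 2835, 2689, 2665 and 2789 CPM with BRD3308 and 975, 1024, 1125 and 1164 CPM with DMSO (1.36, SE 0.05). Nkg7, a granule membrane protein (0.67, SE 0.05), and Ctsc, the cathepsin that activates the granule proteases (0.23, SE 0.04), also rose. In the NADPH oxidase, which makes superoxide, the catalytic subunit Cybb rose by 2.05 (SE 0.08) while 3 of the other 5 subunits fell, among them Rac2 (-0.20, SE 0.05).

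**Figure D4:**
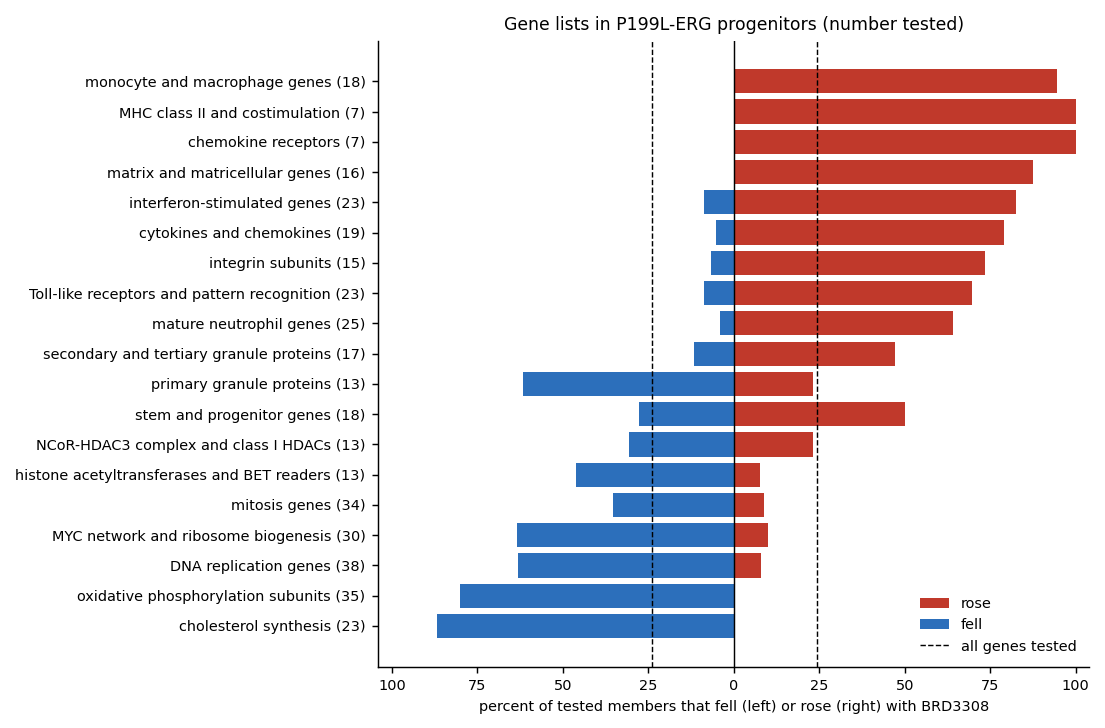
Percent of the tested members of 19 gene lists that fell (blue, left) or rose (red, right) with BRD3308 in P199L-ERG progenitors, with the number tested in brackets; dashed lines mark the shares over all genes tested, 24.1% and 24.4%. Monocyte, class II and chemokine receptor lists lie on the right, and oxidative phosphorylation and cholesterol lists on the left.

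Receptors and ligands of immune signalling rose. All 7 tested chemokine receptors rose (median 0.83), with Ccr1 at 167 ± 12.2 CPM with BRD3308 and 67.4 ± 5.53 CPM with DMSO (1.31, SE 0.08) and Cxcr4, which holds progenitors in the marrow, at 437 ± 7.23 and 338 ± 6.04 CPM (0.37, SE 0.03). Of 19 cytokines and chemokines 15 rose and 1 fell (median 0.97). Csf1, which encodes macrophage colony-stimulating factor, had 28.8, 28.4, 31.8 and 31.2 CPM with BRD3308 and 7.21, 9.48, 8.49 and 6.35 CPM with DMSO (1.93, SE 0.09, edgeR adjusted p = 1.28e-15). The chemokines Ccl9 (0.84, SE 0.05) and Ccl6 (1.57, SE 0.10) and the TGF-beta-induced matrix protein Tgfbi (0.97, SE 0.05) rose as well. Tgfb1 was the member that fell (-0.13, SE 0.04, adjusted p = 0.0137), a call lost without DMSO replicate 1 (-0.10, 0.0723) or BRD3308 replicate 4 (-0.12, 0.0652). Of 23 Toll-like receptors and pattern recognition genes 16 rose and 2 fell (median 0.32). The bacterial lipoprotein receptors Tlr1 (2.25, SE 0.14) and Tlr2 (0.88, SE 0.07), the RNA sensor Tlr7 (0.92, SE 0.09) and the flagellin sensor Naip5 (0.69, SE 0.06) rose, and the shared adaptor Myd88 (-0.34, SE 0.03) and its kinase Irak4 (-0.21, SE 0.04) fell.

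Antigen presentation and interferon-stimulated genes rose too. All 7 tested class II and costimulation genes rose (median 1.25). Among them were H2-Oa (1.10, SE 0.08) and H2-DMa (0.96, SE 0.07), which control peptide loading, and the costimulatory ligands Icosl (1.25, SE 0.09) and Cd80 (1.59, SE 0.12). The 7 other listed members, Cd74 and Ciita among them, had too few reads to be tested. Of 15 class I presentation genes 10 rose and 4 fell (median 0.22). The class I activator Nlrc5 had 46.3, 45.9, 43 and 42.1 CPM with BRD3308 and 25.7, 25.7, 24.9 and 20 CPM with DMSO (0.88, SE 0.06, edgeR adjusted p = 2.12e-12), whereas the immunoproteasome subunit Psmb10 fell (-0.71, SE 0.07). H2-Q6 (0.85, SE 0.05) and H2-Q7 (0.68, SE 0.04) rose, but their near-identical sequences can share reads. Of 23 interferon-stimulated genes 19 rose and 2 fell (median 0.91), most of them at low levels, and with more than 30 reads required in every library 8 rose. The antiviral genes Ifit2 (1.35, SE 0.08) and Zbp1 (1.92, SE 0.17) were among the strongest by p value. Oasl2 had 2.49, 1.84, 2.55 and 1.62 CPM with BRD3308 and 0.129, 0.314, 0.278 and 0.143 CPM with DMSO (3.24, SE 0.35). At these DMSO levels Oasl2 passed the low-count filter only through other libraries in which it was higher, so its rise is a description. Of the falls, Ifi35 was lost without certain single libraries, and 0 members of the list fell without DMSO replicate 4 or without BRD3308 replicate 3.

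Matrix and adhesion genes followed the same direction. Of 16 matrix genes 14 rose and 0 fell (median 1.63), and 8 rose where more than 30 reads were required in every library. Thbs1, thrombospondin 1, had 6563, 6719, 7033 and 7434 CPM with BRD3308 and 1727, 1969, 2039 and 1808 CPM with DMSO (1.88, SE 0.06, edgeR adjusted p = 5.19e-20). The membrane metalloprotease Mmp14 (2.07, SE 0.06) and the laminin chain Lamb2 (2.59, SE 0.12) rose. Of 15 integrin subunits 11 rose and 1, Itga2b, fell (median 0.59). Itgb2, the shared chain of the leukocyte integrins, had 489, 473, 476 and 485 CPM with BRD3308 and 307, 316, 334 and 276 CPM with DMSO (0.64, SE 0.04), while Itga1 (1.78, SE 0.12) and Itgb5 (0.81, SE 0.05) rose as well.

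Several genes that rose beyond 1 were neighbours. Per window of 1 Mb (GRCm38, positions of GENCODE M21), the largest number was 7, in 5 windows chosen after their counts were seen. On chromosome 11 from 82951349, 7 of 25 tested genes rose beyond 1, the Schlafen genes Slfn4 and Slfn5 and the chemokine genes Ccl3, Ccl4 and Ccl6 among them. On chromosome 15 from 74994877, 7 of 20 did, with Ly6a, Ly6c2 and Ly6g of the Ly6 surface antigens. On chromosome 17 from 34092340, 7 of 46 did, with H2-Oa, H2-Ob and H2-Ab1 of class II. On chromosome 3 from 89939481, 6 of 26 did, with S100a4, S100a6, S100a8 and S100a9 among them. Over all tested genes the share was 6.6%. Paralogues in such clusters can share reads.

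Metabolic and growth genes fell by small amounts. Of 23 cholesterol synthesis genes 0 rose and 20 fell (median -0.40). Insig1, the sterol-regulated anchor of SREBP, had 86, 87, 87.6 and 89 CPM with BRD3308 and 140, 153, 150 and 160 CPM with DMSO (-0.79, SE 0.04, edgeR adjusted p = 2.23e-15). The enzymes Fdps (-0.71, SE 0.06), Cyp51 (-0.57, SE 0.04) and Mvd (-0.58, SE 0.04) fell. Of 35 nuclear-encoded subunits of oxidative phosphorylation 0 rose and 28 fell (median -0.23). Examples were Uqcrc1 (-0.28, SE 0.03) and Cyc1 (-0.27, SE 0.04) of complex III and Ndufb5 (-0.47, SE 0.07) and Ndufs8 (-0.47, SE 0.07) of complex I. The mitochondrially encoded mt-Co1 stood at 13226 ± 351 CPM with BRD3308 and 13235 ± 1337 CPM with DMSO (0.00, SE 0.05, adjusted p = 0.99).

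Of 38 DNA replication genes 3 rose and 24 fell (median -0.18). The helicase subunit Mcm7 had 379, 379, 380 and 390 CPM with BRD3308 and 472, 474, 501 and 546 CPM with DMSO (-0.38, SE 0.04, edgeR adjusted p = 3.21e-09), and Pold1, the catalytic chain of polymerase delta, changed by -0.37 (SE 0.03). E2f2, an activator of these genes, rose (0.60, SE 0.04). Of 34 mitosis genes 3 rose and 12 fell (median -0.11), or 19 falls under the replicate block. Beside this, 24.1% of all genes tested fell, and 1252 of 3241 in the highest class by level. The lists were not matched for level. The anaphase activator Cdc20 (-0.45, SE 0.04) and the kinase Plk1 (-0.30, SE 0.06) fell and topoisomerase Top2a rose (0.18, SE 0.04). Mki67, the proliferation marker, had 1130, 1098, 1046 and 1073 CPM with BRD3308 and 1069, 1005, 916 and 825 CPM with DMSO (0.19, SE 0.07, adjusted p = 0.021). The groups overlapped, and the call was lost without DMSO replicate 4 (0.12, 0.132), DMSO replicate 3 (0.17, 0.0625), BRD3308 replicate 1 (0.17, 0.0735) or BRD3308 replicate 2 (0.18, 0.0564). The cyclin-dependent kinase inhibitor Cdkn1a, or p21, had 130, 128, 120 and 109 CPM with BRD3308 and 73.9, 73.2, 70.6 and 70.2 CPM with DMSO (0.76, SE 0.06). Of 30 genes of the MYC network and ribosome biogenesis 3 rose and 19 fell (median -0.19), with the ribosome assembly factors Rrs1 (-0.48, SE 0.05) and Wdr12 (-0.38, SE 0.05) among the falls. Myc itself rose to 219 ± 10.9 CPM with BRD3308, against 183 ± 27.2 CPM with DMSO (0.26, SE 0.07, adjusted p = 0.0052), with overlapping libraries.

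Of 18 stem and progenitor genes 9 rose and 5 fell (median 0.24). Over all genes tested 24.4% rose and 24.1% fell, so the falls on this list lie near the share over all genes. The progenitor antigen Cd34 had 146, 143, 151 and 149 CPM with BRD3308 and 61.5, 58, 56.1 and 58.2 CPM with DMSO (1.33, SE 0.05, edgeR adjusted p = 1.13e-18). Prom1, or CD133, rose by 1.59 (SE 0.09). The Polycomb gene Bmi1 had 38, 39.6, 37.9 and 37.3 CPM with BRD3308 and 60.4, 60.6, 59.9 and 58.6 CPM with DMSO (-0.65, SE 0.04). Kit, the stem cell factor receptor, stood at 274 ± 4.54 CPM with BRD3308 and 275 ± 15.4 CPM with DMSO (-0.01, SE 0.04, adjusted p = 0.91). Of the 7 heptad factors, which bind stem cell enhancers together, Gata2 (0.35, SE 0.09), Erg (0.23, SE 0.04) and Runx1 (0.21, SE 0.08) rose and Lmo2 (-0.30, SE 0.03) and Lyl1 (-0.38, SE 0.04) fell. For Erg the counts cannot separate the mouse gene from reads of the human transgene.

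The enzymes targeted by the drug changed little in transcript level. Hdac3 had 93.4, 96.9, 96 and 95.5 CPM with BRD3308 and 96.8, 95.4, 97.4 and 110 CPM with DMSO (-0.07, SE 0.04, edgeR adjusted p = 0.212). The co-repressor Ncor1 (0.10, SE 0.05, adjusted p = 0.122) did not pass, and under the replicate block it passed as a rise (0.10, 0.0396). Of the complex's other subunits, the TBL1 scaffolds Tbl1x (0.36, SE 0.04) and Tbl1xr1 (0.24, SE 0.06) rose and Gps2 (-0.23, SE 0.06) fell. Over 13 genes of this complex and the class I enzymes 3 rose and 4 fell (median -0.03), but 2 fell without BRD3308 replicate 4. These counts lie near the shares over all genes tested, 24.4% rising and 24.1% falling. Of 13 acetyltransferases and BET readers 1 rose and 6 fell (median -0.12), with the acetyltransferase Kat2a at -0.33 (SE 0.05). The rise was that of Brd2, and its call was lost without DMSO replicate 3 or 4 or BRD3308 replicate 1, 2 or 4 (log2 fold changes of 0.07 to 0.13 over the libraries left out).

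Genes that were nearly silent with DMSO could seldom be tested. Of 36385 genes with at most 3 counts over the 4 DMSO libraries, 15 passed the filter on low counts, which such a gene passes only through another group in which it is higher. Of the 15, 13 rose, a description rather than a result, and 1 of these exceeded 1 CPM with BRD3308. That gene was Slc11a1, the phagosomal metal transporter NRAMP1, with 37, 32, 52 and 30 counts with BRD3308 and 0, 1, 0 and 0 counts with DMSO. The pooled ratio was 148 with a 95% counting interval of 26.1 to 5875, which covers counting error only. It was not silent in the other lines, with 54 counts over the DMSO libraries of BB cells and 9 over those of WT-ERG cells. No gene that fell ended at 3 counts or fewer with BRD3308.

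Markers of other blood lineages were examined because the culture could hold other cells. T and NK cell markers summed to 203 to 219 CPM with BRD3308 and 40 to 43.7 CPM with DMSO. Of the 4 tested 2 rose and 1 fell, and most of the sum was Thy1, at 197 ± 8.32 CPM with BRD3308 and 28.9 ± 2.34 CPM with DMSO (2.76, SE 0.06). The other 13 had too few reads to be tested, the highest being Prf1 with 16 counts with BRD3308 and 1 with DMSO and Cd3d with 13 and 5 counts, while Cd3g, Cd4, Il2rb, Ncr1, Gzma and Gzmb had 0. Of 7 tested B lymphocyte genes 5 rose and 1 fell, and the list summed to 132 to 146 CPM with BRD3308 and 78.9 to 92.6 CPM with DMSO. The antigen receptor signalling chain Cd79a (2.32, SE 0.14) and the factor Ebf1 (1.62, SE 0.14) were among the rises, while Pax5 had 2 counts with BRD3308 and 2 with DMSO, and Ms4a1 and Rag1 had 0. Mast cell and basophil markers summed to 562 to 584 CPM with BRD3308 and 711 to 762 CPM with DMSO, with 1 of 7 rising and 2 falling and the mast cell proteases Mcpt4, Tpsb2, Tpsab1 and Cma1 at 0 counts. Of 8 megakaryocyte markers 4 rose and 2 fell, and the list summed to 342 to 368 CPM with BRD3308 and 338 to 353 CPM with DMSO. Of 3 tested eosinophil markers 2 rose and 0 fell, and the list summed to 141 to 149 CPM with BRD3308 and 67.9 to 75.7 CPM with DMSO. Of 4 tested erythroid markers 3 rose and 0 fell, or 1 to 3 rose when 1 library was left out. The erythroid list summed to 547 to 569 CPM with BRD3308 and 491 to 533 CPM with DMSO. Eosinophil peroxidase, Epx, and the adult globins had 0 counts. Beside these counts, 24.4% of all genes tested rose and 24.1% fell, and the counts of the mast cell list lie near these shares. The part of other cells in these marker values was not tested.

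The responses of P199L-ERG and WT-ERG cells shared most genes. The comparisons use separate libraries. Of the 3167 genes that rose in P199L-ERG cells, 2629 rose in WT-ERG cells (83% of the P199L-ERG list and 82% of the WT-ERG list, where 24.7% of all genes rose), and of those that fell 2412 fell in both (77.3% and 80.1%, where 23.2% of all genes fell in WT-ERG cells). In opposite directions went 0 and 3 genes. With BB cells, 2447 genes rose in both (77.3% of the P199L-ERG list and 78.8% of the BB list) and 2159 fell in both (69.2% and 75.8%), beside 24% and 22% of all genes in BB cells. Here 9 and 8 genes went in opposite directions. In all 3 lines 2241 genes rose and 1963 fell. Of the 332 genes called as rising in P199L-ERG cells alone, 0 differed in response from both other lines by the test of the difference.

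Tested directly, the response of P199L-ERG cells differed from that of BB cells for 136 genes, 1.05% of those tested. It was higher for 59 (0.455%) and lower for 77 (0.594%). Blocking on the replicate number, which treats equal numbers as pairs, gave 213 and 254. Without DMSO BB replicate 3 they were 34 and 45, and without BRD3308 P199L-ERG replicate 4 the first was 36. Of the genes with a higher response, Sgms2, a sphingomyelin synthase, had the smallest p, with a rise of 0.46 (SE 0.04) in P199L-ERG cells and a change of -0.26 (SE 0.04) in BB cells. Cybb, the oxidase subunit, had 62 ± 2.36 CPM with BRD3308 and 15 ± 1.58 CPM with DMSO in P199L-ERG cells, against 119 ± 8.34 and 49.9 ± 4.57 CPM in BB cells (difference in log2 response 0.80, SE 0.10, edgeR adjusted p = 2.47e-05). Csf2rb2, a receptor chain for interleukin 3, had 116 ± 1.98 and 42.4 ± 0.893 CPM in P199L-ERG cells and 124 ± 4.56 and 67.8 ± 3.96 CPM in BB cells (0.58, SE 0.06). Cybb and Csf2rb2 started lower in P199L-ERG cells with DMSO, a level that enters the difference itself. Myo18b (1.11, SE 0.14), Abca13 (0.76, SE 0.11) and F13a1 (0.35, SE 0.05) had higher responses too.

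Of the 77 genes with a lower response than in BB cells, 45 rose and 13 fell in P199L-ERG cells. The 6 of smallest p rose in both lines, by less in P199L-ERG cells. Ifitm1, an interferon-induced membrane protein, had 285 ± 5.28 CPM with BRD3308 and 204 ± 14.8 CPM with DMSO in P199L-ERG cells, against 175 ± 13.3 and 51.1 ± 2.83 CPM in BB cells (difference in log2 response -1.30, SE 0.09, edgeR adjusted p = 1.34e-10). Thy1, a surface glycoprotein, had 197 ± 8.32 and 28.9 ± 2.34 CPM in P199L-ERG cells and 129 ± 6.51 and 8.9 ± 0.913 CPM in BB cells (-1.09, SE 0.10). Both were higher in P199L-ERG than in BB cells with BRD3308 and with DMSO alike. Pecam1 (-0.66, SE 0.06), Ifitm3 (-0.68, SE 0.07), Ccr2 (-0.61, SE 0.07) and Pld4 (-0.69, SE 0.08) were of the same kind. Among the 12 genes named here, the difference from the WT-ERG response passed for 0, its values lying between -0.22 for Pecam1 and 0.28 for Ifitm1.

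**Figure D5:**
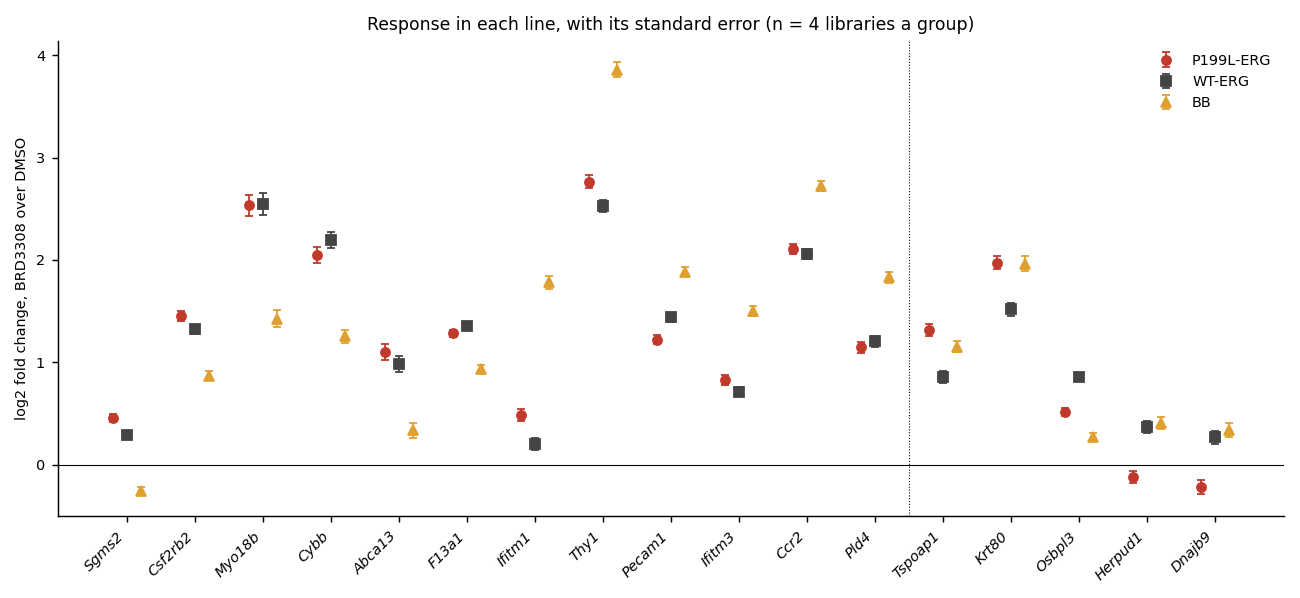
Log2 fold change of BRD3308 over DMSO, with its standard error, in P199L-ERG (red circles), WT-ERG (dark grey squares) and BB cells (yellow triangles), for the 12 genes of smallest p for a difference from BB cells (left of the dotted line) and 5 that differed from WT-ERG cells. The choice of the 12 sets P199L-ERG apart from BB on them, and Herpud1 and Dnajb9 lie below 0 in P199L-ERG cells alone.

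From WT-ERG cells the response of P199L-ERG cells differed for 6 genes (0.0463%), and 764 had an unadjusted p under 0.05. DESeq2 called 8 higher and 13 lower. The response was higher for 3 genes (0.0231%), among them Tspoap1 (0.46, SE 0.08, edgeR adjusted p = 0.0274) and Krt80 (0.46, SE 0.09, 0.0493), and lower for 3 (0.0231%), the oxysterol-binding Osbpl3 (-0.34, SE 0.06, 0.0153), Herpud1 (-0.49, SE 0.08, 0.0153) and Dnajb9 (-0.49, SE 0.09, 0.0332). No gene passed in either direction without BRD3308 P199L-ERG replicate 1, 2 or 3, BRD3308 WT-ERG replicate 1 or 3, or DMSO WT-ERG replicate 2, and 6 were lower without DMSO P199L-ERG replicate 4. Herpud1, a component of the degradation pathway of the endoplasmic reticulum, had 155, 171, 168 and 171 CPM with BRD3308 and 181, 186, 191 and 165 CPM with DMSO in P199L-ERG cells (-0.12, SE 0.06, adjusted p = 0.0959). It passed as a fall without DMSO replicate 4 (-0.17, 0.0159) and under the replicate block (-0.12, 0.0282). In WT-ERG cells Herpud1 rose by 0.37 (SE 0.06) and in BB cells by 0.41 (SE 0.06). Dnajb9, a co-chaperone of the same compartment, had 56.9, 53.4, 50.8 and 47.5 CPM with BRD3308 and 63.5, 61.6, 61.7 and 56.2 CPM with DMSO (-0.22, SE 0.06, adjusted p = 0.00553), with overlapping libraries, and Dnajb9 rose by 0.27 (SE 0.06) in WT-ERG and by 0.34 (SE 0.06) in BB cells. Herpud1 (-0.53, SE 0.08), Dnajb9 (-0.56, SE 0.09) and Osbpl3 (0.24, SE 0.05) also differed from BB cells, Osbpl3 in the other direction.

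Genes that WT-ERG lowers were set against the response of P199L-ERG cells, since the study asked whether ERG represses genes through HDAC3. The first contrast uses DMSO libraries of WT-ERG and BB cells only, so it shares none with the second. WT-ERG cells had 1825 genes below their BB level (14.1% of those tested). Of these 43.7% rose with BRD3308 in P199L-ERG cells and 19.2% fell, with a median of 0.10. They had 2027 genes above it (15.6%). Of these 26.5% rose and 35.9% fell, with a median of -0.06. Beyond 1 on the log2 scale in the first contrast, 59.4% of 229 lower genes and 59.2% of 265 higher genes rose in P199L-ERG cells. Falls were 4.37% and 7.92%. Both shares of rises lay above the 24.4% of all genes.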

How the data were processed

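RNA sequencing reads of 24 libraries were trimmed and aligned, and reads were counted per gene. The table deposited by the authors holds raw counts, whole numbers that are not normalized. The submitters' processing notes name cutadapt, STAR, HTSeq, DESeq2 and the build GRCm38, and the paper states that reads under 30 bp were discarded. For the counting, the strand setting and annotation release were not given in the sources used here. Gene positions and classes came from GENCODE M21, which matched 53706 of 53801 gene identifiers.

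Counts were tested with edgeR 4.0.16 (R 4.3.3) by the quasi-likelihood F test on all 24 libraries with 6 group coefficients, TMM factors and filterByExpr, and p-values of 12963 genes received a Benjamini-Hochberg adjustment. All adjusted p-values in the text come from this model unless another tool is named. Standard errors are the log2 fold change divided by the root of F. Alternatives used limma 3.58.1 (voom), DESeq2 1.42.0, RLE factors, library size alone, other filters and thresholds, only the groups compared, a block on the replicate number, and leaving out libraries 1 at a time. The edgeR fit was tested on simulated data.

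Replicate numbers come from the labels. Deviations from the group means correlated between same-numbered BRD3308 and DMSO libraries at 0.458, 0.115, 0.152 and 0.166 in P199L-ERG cells. In BB cells the values were 0.546, 0.162, 0.17 and 0.358. The main model used no pairing. Only the alternative with a replicate block treated equal numbers as pairs, and it did so across all 24 libraries. Unlike numbers 3 and 4 correlated at 0.167 and 0.165 in P199L-ERG cells and at 0.186 and 0.26 in BB cells. All other unlike numbers lay between -0.295 and 0.0325 in P199L-ERG cells and between -0.432 and 0.0411 in BB cells. Equal numbers thus do not set replicates 3 and 4 apart as pairs in P199L-ERG cells.

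Named genes were the 8 largest rises and falls among genes that reached 2 in mean log2 CPM and whose groups did not overlap, the members of each list with the smallest p (up to 4), those that passed against the majority of their list and its defining genes, the 6 of smallest p per direction for each difference in response, and genes with at most 3 counts in a group. Some genes of the lists are not reported here. The members and lists were chosen with earlier results of these data known. Ratio intervals of pooled counts are exact (Clopper-Pearson) at 95% and cover counting error only.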

Additional observations from a re-analysis of the deposited data

Results flagged for a closer look

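The response of P199L-ERG cells to BRD3308 differed from that of another line for these named genes, by the test of the difference in edgeR. Above the response of BB cells, with the difference in log2 response in brackets, were Myo18b (1.11), Cybb (0.80), Abca13 (0.76), Ighm (0.72), Sgms2 (0.71), Prom1 (0.68), Cd80 (0.66), Csf2rb2 (0.58), Thbs1 (0.52), Mpeg1 (0.44), F13a1 (0.35) and Osbpl3 (0.24). Below it were Ifitm1 (-1.30), Thy1 (-1.09), Itgb7 (-0.82), Adam8 (-0.78), Pld4 (-0.69), Ifitm3 (-0.68), Pecam1 (-0.66), Ccr2 (-0.61), Gata2 (-0.57), Dnajb9 (-0.56), Nkg7 (-0.55), Herpud1 (-0.53), Cdkn1a (-0.51), Ccl9 (-0.39) and Mmp14 (-0.38). The calls of Itgb7, Gata2, Cd80, Mmp14 and Osbpl3 against BB cells were lost without certain single libraries. Above the response of WT-ERG cells were Tspoap1 (0.46) and Krt80 (0.46), and below it were Herpud1 (-0.49), Dnajb9 (-0.49) and Osbpl3 (-0.34). Each of these calls against WT-ERG cells was lost without certain single libraries too.

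Among 145 genes the levels of the 4 BRD3308 and of the 4 DMSO libraries of P199L-ERG cells were checked for 1 library far from the other 3. This held in 19 of 290 groups (6.55%), where chance flags about 1 in 20. DMSO replicate 4 stood apart for F13a1 (242 CPM), Csf1r (21.5 CPM), Nlrc5 (19.97 CPM), Itgb5 (39.4 CPM), Fdps (167 CPM), Max (165 CPM), Lyl1 (301 CPM) and Hdac3 (110.0 CPM). DMSO replicate 2 did so for Myo18b (4.08 CPM) and Slc11a1 (0.0627 CPM), where the Slc11a1 value is that of 1 read. BRD3308 replicate 4 stood apart for Tlr2 (45.4 CPM), Naip5 (59.7 CPM), Mcm7 (389.9 CPM), Kit (281 CPM), Tbl1xr1 (100.3 CPM) and Kat2a (81.9 CPM). BRD3308 replicate 1 did so for Gas2l1 (4.52 CPM), Thy1 (209 CPM) and Rrs1 (60.1 CPM).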

How the results depend on the processing

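The response in P199L-ERG cells stayed within 1.5 times its counts of genes under the other normalizations, filters, tools and the replicate block (3522 rises and 3581 falls), with 2892 to 3078 rises and 2848 to 3173 falls when 1 library was left out, and 856 and 30 where an absolute log2 fold change over 1 was required. The difference from BB cells gave 26 genes higher and 35 lower at an adjusted p under 0.01, 5 and 6 beyond 1 on the log2 scale, 159 and 141 with no filter on low counts, 213 and 254 under the replicate block, 92 and 111 without replicate 4 of both DMSO P199L-ERG and DMSO WT-ERG cells (chosen after seeing the data), and 34 to 71 and 45 to 105 when 1 library was left out. The difference from WT-ERG cells gave 0 and 0 at an adjusted p under 0.01 and beyond 1 on the log2 scale, 1 higher with RLE size factors, 12 and 9 with no filter, 0 and 1 with only the groups compared, 8 and 13 with DESeq2, 16 and 12 under the replicate block, 6 and 7 without both replicates 4, and 0 to 3 and 0 to 6 when 1 library was left out. In WT-ERG cells 2 of the 4 same-numbered pairs correlated under 0.1 (0.072 and 0.0404). The replicate block included the WT-ERG libraries all the same, and the main model used no pairing. Of the gene results 3094 kept their call, 133 lost it and 20 gained it over all settings. Those that passed kept their sign, whereas Kit (-0.05 to 0.03) and mt-Co1 (-0.08 to 0.04), which did not pass, took either sign when 1 library was left out. The cause of these changes was not tested. Depth limits the rarest genes, as the interval of 26.1 to 5875 on the Slc11a1 ratio shows. The ribosomal protein list had 9 rises without DMSO replicate 4 and 17 falls without DMSO replicate 1, against 4 and 5 with all libraries.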

Other observations

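Because Herpud1 and Dnajb9 differed from both other lines, 29 genes of the unfolded protein response, the program that raises chaperones and degradation factors of the endoplasmic reticulum, were listed after those results were seen, so the counts are a description. Of the 28 tested in P199L-ERG cells 3 rose and 17 fell with BRD3308, 24 had a negative log2 fold change and the median was -0.21, beside -0.01 over all genes. In WT-ERG cells 5 rose and 9 fell (median -0.07), and in BB cells 4 rose and 11 fell (median -0.01). The differences in response passed for 2 of the 28, Herpud1 and Dnajb9, against each line.

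Hspa5, the main chaperone of that compartment, had 1766, 1815, 1742 and 1650 CPM with BRD3308 and 1846, 1904, 1909 and 2027 CPM with DMSO in P199L-ERG cells (-0.14, SE 0.04, edgeR adjusted p = 0.00537). The groups did not overlap. The stress factor gene Ddit3 had 12.2, 10.7, 10.7 and 10.4 CPM with BRD3308 and 17.6, 14.6, 15.2 and 15.8 CPM with DMSO (-0.52, SE 0.11, edgeR adjusted p = 0.000166). The difference in the response of Ddit3 was -0.50 from BB cells (adjusted p = 0.109) and -0.46 from WT-ERG cells (adjusted p = 0.62), so neither passed.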
